A study of Rattus norvegicus with 6 samples.

Results

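Type I interferon response genes were followed in the liver of male rats given o-anthranilic acid. They are 36 genes chosen by name, namely interferon-stimulated genes and the STAT and IRF factors that control them. Of the 36, 33 had at least 1 array probe whose accession matched the gene, 55 probes in all, and 30 genes were measured, out of 10257 genes measured on the array. Herc6, Xaf1 and Ddx58 (listed as Rig1 in the gene table used) had no matched probe, and Oas2, Oas3 and Ifit1 had probes that were too dim to test. The study compared 3 male Sprague-Dawley (Crl:CD(SD)) rats given corn oil, the vehicle, with 3 dosed with o-anthranilic acid, an aromatic amino acid that the body makes from tryptophan, at 1000 mg/kg/day. Rats were 5 weeks old when bought and received a basal diet. The labels give a dosing time of 9 weeks in the treatment protocol and a measurement at 28 days in the design text. Each rat contributed 1 single-colour array of liver RNA, so a group is 3 animals of 1 sex and 1 strain at 1 dose.

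In the type I interferon pathway, infected cells sense foreign nucleic acid through receptors such as RIG-I and MDA5 and secrete interferon. Interferon binds its receptor on neighbouring cells, where a factor complex that includes STAT2 and IRF9 enters the nucleus and binds the interferon-stimulated response element in the promoters of its target genes. The targets encode enzymes that degrade viral RNA, block translation or trap virus particles, together with factors such as IRF7 that strengthen the response. In liver, hepatocytes and Kupffer cells, the resident macrophages, both respond to interferon.

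All values are log2 signals relative to the 75th percentile of the array, so that 0 means as bright as that percentile, and differences are anthranilic acid minus corn oil. The share of probes well above background ran from 53.3% to 58.0% over the arrays, and no spot was saturated. All 10 hepatocyte markers examined were above background on all 6 arrays. Pearson's r between whole arrays, across probes, was 0.987 to 0.992 for rats of the same group and 0.984 to 0.989 for rats of different groups. The corn oil arrays and treated replicates 1 and 2 lay on 1 slide, and treated replicate 3 lay on another slide with a later scan.

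Promoters of 27 of the 36 genes were found in the RefSeq table for GRCr8, each covering 250 bases before to 50 bases after the gene start. The core of the interferon-stimulated response element was searched on both strands as GAAA, then any 2 bases, then GAAA. It was present in 18 of the 27 promoters (66.7%), against 1312 of all 33469 promoters in that table (3.92%). Counted once per gene, it was present in 282 of 8433 genes with a promoter and a tested probe (3.34%). The gamma-activated site TTCNNNGAA, which reads the same on both strands, was present in 9 of the 27 (33.3%). It was present in 8.87% of all promoters and in 7.48% of the 8433 genes. Both motifs were found in 6 of the 27 promoters, and in 1 of them a match of each shared bases. The promoters of 5 genes are printed 5′ to 3′ with the response element core in capitals, because the genes differ in how they stood on the arrays. Oas1a, Oas1b and Oas1e belong to 1 gene cluster on chromosome 12. Oas1a and Oas1b carry the same pair of overlapping matches, and the window of Oas1e carries none. Irf7 carries a single match on the opposite strand, and Bst2 a pair of overlapping matches.
Oas1a promoter, GRCr8, chr12:41330216-41330515, plus strand: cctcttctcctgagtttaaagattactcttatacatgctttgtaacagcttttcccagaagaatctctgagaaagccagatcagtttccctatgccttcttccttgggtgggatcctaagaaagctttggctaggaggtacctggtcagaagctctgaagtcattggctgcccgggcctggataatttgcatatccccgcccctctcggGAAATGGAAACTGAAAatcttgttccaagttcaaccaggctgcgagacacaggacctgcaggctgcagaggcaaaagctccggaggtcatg
Oas1b promoter, GRCr8, chr12:41395803-41396102, minus strand: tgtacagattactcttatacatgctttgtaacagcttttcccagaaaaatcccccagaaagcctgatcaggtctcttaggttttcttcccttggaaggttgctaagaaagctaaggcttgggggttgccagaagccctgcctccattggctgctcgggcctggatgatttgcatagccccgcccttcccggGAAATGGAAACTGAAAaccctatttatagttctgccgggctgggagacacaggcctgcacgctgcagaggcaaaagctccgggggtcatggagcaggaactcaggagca
Oas1e promoter, GRCr8, chr12:41410731-41411030, plus strand: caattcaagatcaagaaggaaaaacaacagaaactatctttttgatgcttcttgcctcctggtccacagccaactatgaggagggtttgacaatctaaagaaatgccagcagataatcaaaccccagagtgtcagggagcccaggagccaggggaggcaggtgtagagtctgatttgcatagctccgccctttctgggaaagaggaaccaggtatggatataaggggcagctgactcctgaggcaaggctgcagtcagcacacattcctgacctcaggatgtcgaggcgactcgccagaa
Irf7 promoter, GRCr8, chr1:205799974-205800273, minus strand: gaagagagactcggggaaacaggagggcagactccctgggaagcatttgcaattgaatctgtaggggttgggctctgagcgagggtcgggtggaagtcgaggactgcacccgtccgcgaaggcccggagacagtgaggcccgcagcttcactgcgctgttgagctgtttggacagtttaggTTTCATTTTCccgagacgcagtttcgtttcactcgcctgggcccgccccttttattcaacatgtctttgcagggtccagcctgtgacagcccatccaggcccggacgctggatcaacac
Bst2 promoter, GRCr8, chr16:18254918-18255217, minus strand: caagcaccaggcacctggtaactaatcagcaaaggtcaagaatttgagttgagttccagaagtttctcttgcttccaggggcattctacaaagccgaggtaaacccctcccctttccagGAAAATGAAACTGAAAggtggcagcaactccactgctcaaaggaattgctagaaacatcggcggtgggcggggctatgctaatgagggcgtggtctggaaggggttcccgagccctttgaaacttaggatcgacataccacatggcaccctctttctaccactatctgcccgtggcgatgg

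Interferon response genes mostly had lower signals in treated livers than in controls, and the difference did not pass the test for any of the 30. The fitted difference was below 0 for 26 of the 30 measured genes, with a median of -0.34 and a range from -1.51 (Usp18) to 0.60 (Bst2). Over all tested genes 48% were below 0 and the median was 0.01. By limma with Benjamini-Hochberg adjustment over all probes, 0 of 30 passed an adjusted p of 0.05 (background 0% of 10257 genes by their brightest probe, and 0.0329% of the 33428 probes), and the smallest adjusted p was 0.108 (Oas1e). At unadjusted p under 0.05 there were 7 lower genes, with a background of 6.15%, and 1 higher gene, with a background of 5.47%. The lower ones were Usp18, Oas1e, Oas1a, Oasl, Oasl2, Irf9 and Gbp2, and the higher one was Bst2. Every treated array lay below every corn oil array for 7 of the 30 genes, with a background of 9.13%, namely Usp18, Oas1e, Oasl, Irf9, Ifitm3, Gbp2 and Ifi44l. Oasl passed the filter on dim probes only through the corn oil group. Over the 29 genes above background on all arrays, 7 had an unadjusted p under 0.05 in either direction, with a background of 11.7%. Of these 29 genes, 6 did not overlap in either direction, with a background of 19.6%. In RNA of whole liver, fewer cells of a type and less of an RNA per cell cannot be told apart.

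One control array carried much of this difference. Corn oil replicate 2 had the highest signal of the 6 arrays for 20 of the 30 genes, against 13.7% of all tested genes, and the highest of the 3 corn oil arrays for 22 of 30, against 30.1%. Over the 29 genes above background on all arrays, which leave out Oasl, it was the highest of the 6 for 19. The median over the 30 genes of the array's distance from the 6-array mean was 0.52 for corn oil replicate 2, against 0.11 and -0.07 for corn oil replicates 1 and 3. The treated arrays stood at -0.13, -0.14 and -0.34. Corn oil replicate 2 lay at least 0.8 above the mean of the other corn oil arrays for 10 of the 30 genes, against 1.37% of all tested genes. At the other end, treated replicate 3, the array on the second slide, was lowest for 18 of the 30 genes, against 15.6% of all tested genes.

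**Figure D1:**
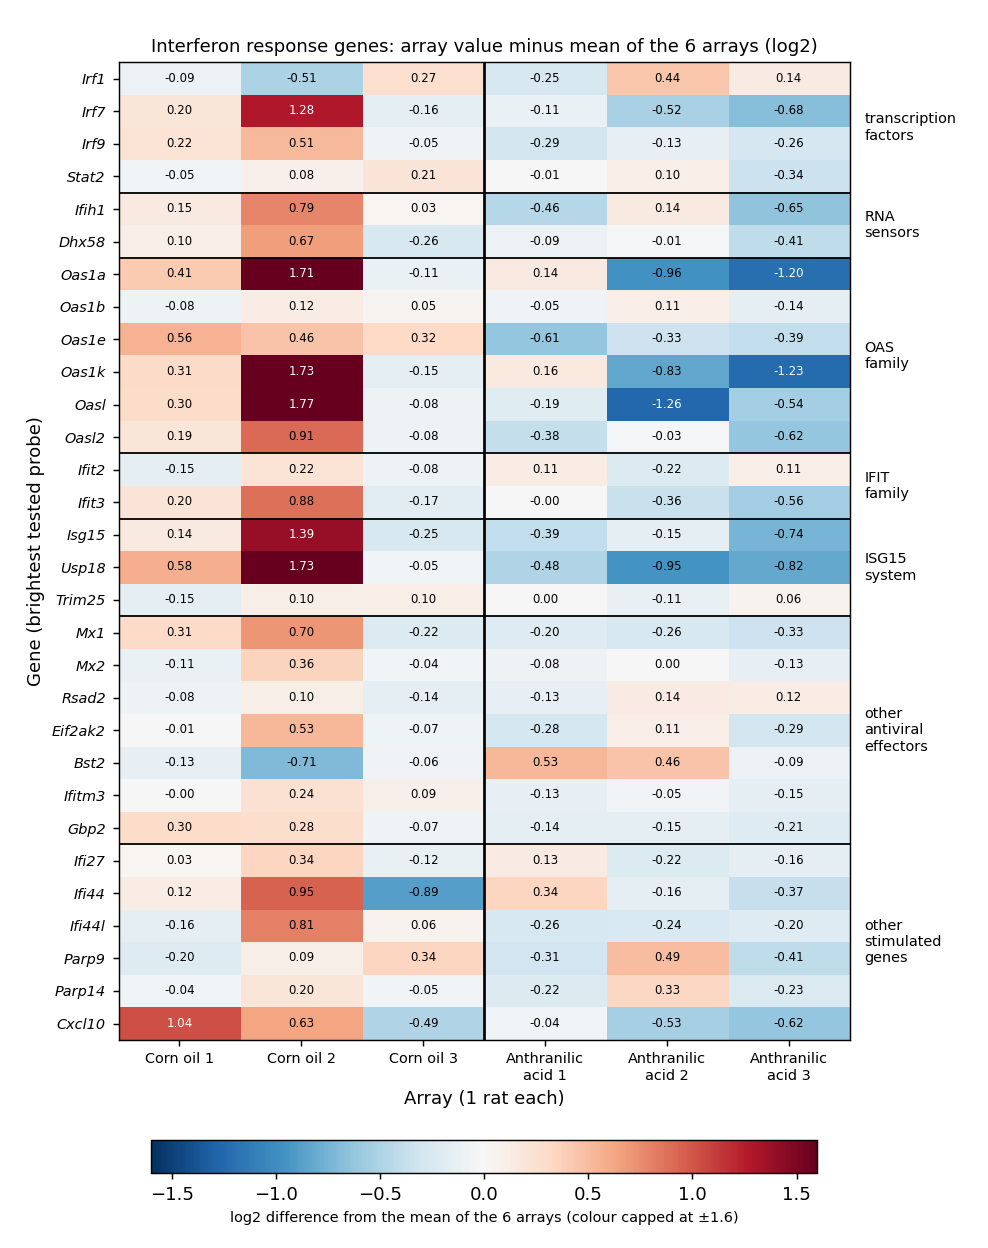
Value of each of the 30 measured genes (rows, grouped by role) on each of the 6 arrays (columns), as the log2 distance from that gene's mean over the 6 arrays, with red above and blue below the mean. The column of corn oil replicate 2 is the reddest, with Oasl, Oas1k and Usp18 as its strongest cells, while Bst2 and Irf1 are at their lowest there. Oasl was well above background on only 1 of 3 treated arrays and was tested only through the corn oil group.

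Without corn oil replicate 2 the median difference of the 30 genes was -0.17, and 22 of 30 were below 0, where all tested genes gave 48.5%. Leaving out a gene's highest control raises its difference by construction, so this is no separate check of that array's part. The 4 genes that moved from below to above 0 were Ifi44, Mx2, Parp14 and Trim25. There were then 2 genes at unadjusted p under 0.05, Usp18 and Oas1e, both lower, with a background of 4.56% for lower genes, and the smallest adjusted p was 0.360. Every treated array lay below every remaining corn oil array for 7 of 30 genes, with a background of 12.8%. Counted in either direction the number was also 7, with a background of 27.3%. Leaving out corn oil replicate 3 instead gave a median of -0.56 and 16 genes at unadjusted p under 0.05 in either direction, where all tested genes gave 11.8%. Within the first slide alone the median was -0.27. It was -0.16 within the first slide and without corn oil replicate 2, a setting added after the data were seen.

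**Figure D2:**
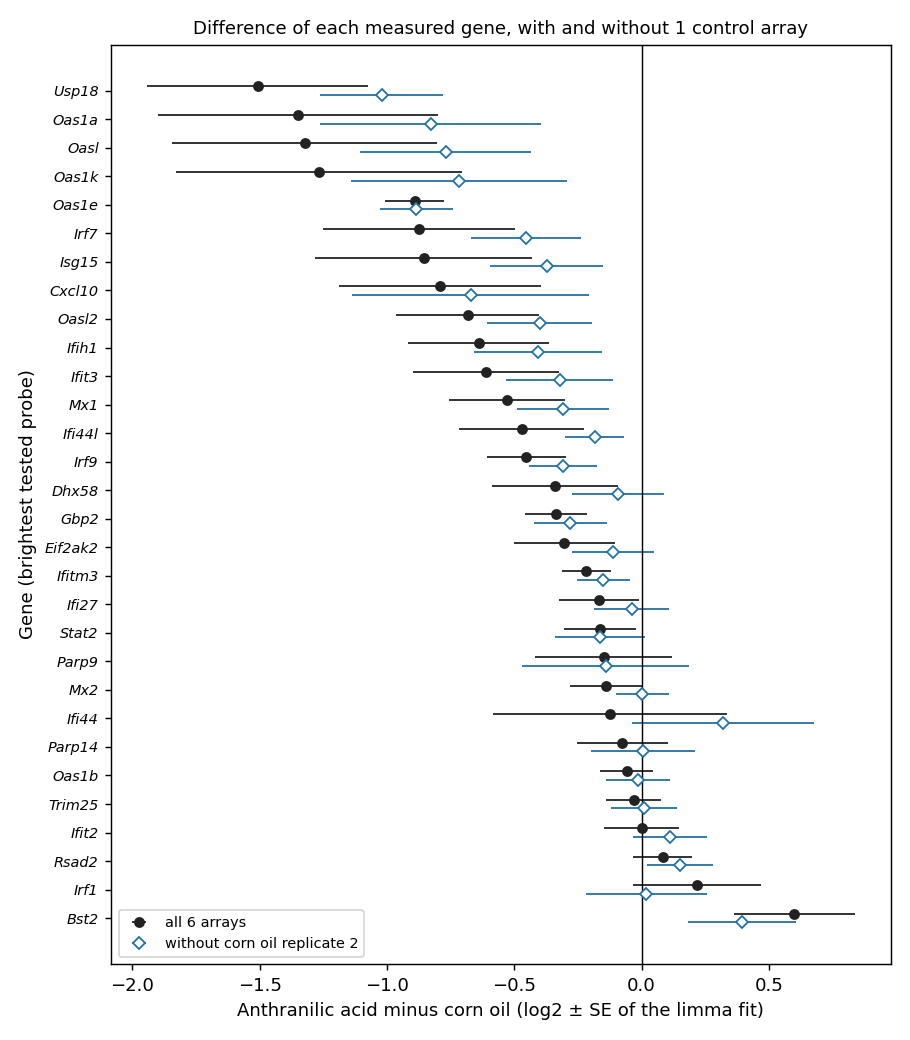
Anthranilic acid minus corn oil difference (log2, horizontal axis, bars are the SE of the limma fit) of each of the 30 genes with all 6 arrays (filled circles) and without corn oil replicate 2 (open diamonds). Most diamonds lie nearer 0 than their circle, as for Isg15 (-0.86 to -0.37), whereas Oas1e stays at -0.89 and -0.88.

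Among the factors that transmit the signal, Irf7, the factor that amplifies interferon production, had the largest difference. Irf7 stood at 2.57, 3.65 and 2.22 on corn oil replicates 1, 2 and 3 and at 2.27, 1.86 and 1.69 on the treated arrays. The groups overlapped, since treated replicate 1 lay above corn oil replicate 3, and the difference was -0.87 (SE 0.38, adjusted p = 0.419), or -0.45 (SE 0.22) without corn oil replicate 2. Irf9, the DNA-binding subunit of that factor complex, stood at 0.17, 0.47 and -0.10 in corn oil and at -0.33, -0.17 and -0.31 in treated livers. All 3 treated arrays lay below all 3 corn oil arrays, with a difference of -0.45 (SE 0.16, adjusted p = 0.364), or -0.31 without corn oil replicate 2. Its second probe gave -0.36. Stat2, the partner of IRF9, was at -0.16 (SE 0.14), and Irf1, which also responds to interferon gamma, at 0.22 (SE 0.25). Irf1 had its lowest signal of the 6 arrays on corn oil replicate 2, opposite to Irf7 and Irf9.

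Both measured RNA sensors were lower, neither past the test. Ifih1, which encodes the double-stranded RNA sensor MDA5, stood at -1.06, -0.42 and -1.17 in corn oil and at -1.66, -1.06 and -1.85 in treated livers. Treated replicate 2 reached the level of corn oil replicates 1 and 3, and the difference was -0.64 (SE 0.28, adjusted p = 0.419). Dhx58, which encodes the regulatory sensor LGP2, stood at -0.50, 0.06 and -0.86 in corn oil and at -0.69, -0.62 and -1.01 in treated livers. The groups of Dhx58 overlapped, and its difference of -0.34 (SE 0.25, adjusted p = 0.591) was -0.09 without corn oil replicate 2. A second probe gave -0.03, and the dimmest one, at -0.50, was above background on only 1 of 3 treated arrays.

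The oligoadenylate synthetase family, enzymes that make the 2′-5′ oligoadenylates that activate RNase L, or their inactive relatives, held the largest differences together with Usp18. All 6 measured members were below 0, with a median of -1.08, where 48% of all tested genes were below 0. At unadjusted p under 0.05, 4 were lower, with a background of 6.15%. Without Oasl, which was tested only through the corn oil group, the median of the other 5 was -0.89, and Oasl is 1 of the 4. Oas1a stood at 3.35, 4.65 and 2.82 in corn oil and at 3.08, 1.97 and 1.73 in treated livers. Treated replicate 1 lay above corn oil replicate 3, so the groups overlapped, and the difference was -1.35 (SE 0.55, adjusted p = 0.404), a 2.55-fold lower mean. Its second probe gave -1.31, and without corn oil replicate 2 the difference was -0.83 (SE 0.43). Oas1k stood at 0.69, 2.11 and 0.23 in corn oil and at 0.53, -0.45 and -0.85 in treated livers, the same order of arrays as Oas1a. Its difference was -1.27 (SE 0.56, adjusted p = 0.424), or -0.72 without corn oil replicate 2.

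Oas1e, a rat member of the Oas1 gene cluster, showed another pattern. It stood at -1.91, -2.02 and -2.16 in corn oil and at -3.09, -2.80 and -2.87 in treated livers. The SD within a group was 0.12 in corn oil and 0.15 in treated livers, and the groups lay apart. The difference was -0.89 (SE 0.12, adjusted p = 0.108), and corn oil replicate 2 stood only 0.02 above the mean of the other corn oil arrays, so that leaving it out gave -0.88. The gene is dim, and with another background correction (normexp) the difference was -0.57. Oas1b, whose promoter window holds the same pair of matches as that of Oas1a, stood between 5.95 and 6.14 in corn oil and between 5.88 and 6.13 in treated livers, a difference of -0.06 (SE 0.10). The 4 Oas1 genes are close copies of each other, so signal at 1 probe can come from another copy.

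Among the more distant relatives, Oasl stood at -3.38, -1.91 and -3.76 in corn oil and at -3.87, -4.94 and -4.22 in treated livers. Only 1 of its 3 treated arrays was well above background, so the gene entered the test through the corn oil group, and its level in treated livers is poorly measured. Its difference was -1.32 (SE 0.52, adjusted p = 0.397), or -0.77 without corn oil replicate 2. Oasl2 stood at -0.05, 0.66 and -0.32 in corn oil and at -0.62, -0.27 and -0.86 in treated livers. Treated replicate 2 lay just above corn oil replicate 3, and the difference was -0.68 (SE 0.28, adjusted p = 0.406), or -0.40 without corn oil replicate 2. Oas2 and Oas3 were above background on 2 corn oil arrays each, and on the treated arrays Oas2 was above background on 2 and Oas3 on 0.

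**Figure D3:**
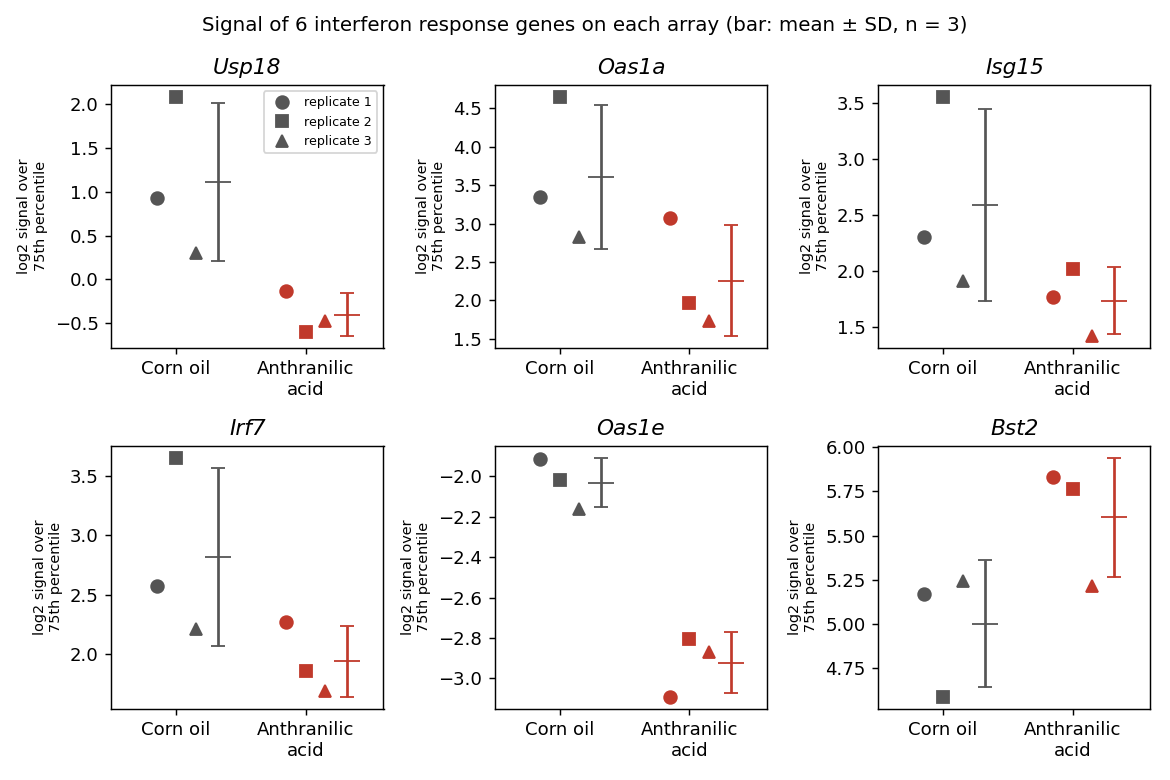
Log2 signal over the array's 75th percentile of 6 genes on each corn oil (grey) and treated (red) array, with 1 symbol per replicate number and a bar for the mean ± SD (n = 3). The square of corn oil replicate 2 stands highest for Usp18, Oas1a, Isg15 and Irf7, lies among the other controls for Oas1e, and is the lowest point for Bst2 (4.59).

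Genes of the ISG15 system, a ubiquitin-like tag and the enzymes that attach and remove it, differed among themselves. Usp18, the protease that removes ISG15 and dampens receptor signalling, stood at 0.93, 2.08 and 0.31 in corn oil and at -0.13, -0.60 and -0.47 in treated livers. The groups did not overlap, and the difference was -1.51 (SE 0.44, adjusted p = 0.314), a 2.84-fold lower mean. The other Usp18 probes gave -1.32 and -1.18, the former above background on only 2 of 3 treated arrays, and without corn oil replicate 2 the brightest gave -1.02 (SE 0.24, adjusted p = 0.464). Isg15 itself stood at 2.30, 3.55 and 1.91 in corn oil and at 1.77, 2.01 and 1.42 in treated livers. Treated replicate 2 lay above corn oil replicate 3, and the difference of -0.86 (SE 0.43, adjusted p = 0.459) was -0.37 without corn oil replicate 2. Trim25, a ligase that activates RIG-I, was at -0.03 (SE 0.11).

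In the IFIT family, proteins that bind viral RNA, the pattern depended on the gene. Ifit3 stood at -1.48, -0.80 and -1.85 in corn oil and at -1.69, -2.04 and -2.24 in treated livers, a difference of -0.61 (SE 0.29, adjusted p = 0.442). Its dimmer probe, above background on only 2 of 3 treated arrays, gave -1.13. Ifit2 stood at -0.22, 0.15 and -0.15 in corn oil and at 0.04, -0.30 and 0.04 in treated livers, with a difference of 0.00 (SE 0.15), and its dimmer probe gave -0.35 (SE 0.21). The only Ifit1 probe was well above background on 1 of the 6 arrays, corn oil replicate 2, where it stood at -2.98, against -6.69 to -5.94 on the arrays where it was not well above background.

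Among the other antiviral effectors, Gbp2, an interferon-induced GTPase, and Bst2 (tetherin, which holds budding virus on the cell surface) lay on opposite sides of 0. Gbp2 stood at 1.70, 1.68 and 1.33 in corn oil and at 1.26, 1.25 and 1.19 in treated livers. The groups lay apart by a narrow margin, and the difference was -0.33 (SE 0.12, adjusted p = 0.383). Bst2 stood at 5.17, 4.59 and 5.24 in corn oil and at 5.83, 5.76 and 5.21 in treated livers. Treated replicate 3 lay within the corn oil range, and the difference was 0.60 (SE 0.24, adjusted p = 0.399), or 0.39 without corn oil replicate 2, where Bst2 was lowest. Its second probe gave 0.45.

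Mx1, an antiviral GTPase, stood at 2.26, 2.65 and 1.73 in corn oil and between 1.62 and 1.75 in treated livers, a difference of -0.53 (SE 0.23, adjusted p = 0.419). The probes of its relative Mx2 did not give like values. The bright Mx2 probe gave -0.14 (SE 0.14), whereas the dimmer one stood at -0.82, 0.58 and -1.54 in corn oil and at -2.45, -1.35 and -2.49 in treated livers, a difference of -1.50 (SE 0.58, adjusted p = 0.395). The difference between these probes was not tested. Ifitm3, which blocks virus entry, was at -0.22 (SE 0.10) with groups that did not overlap, Eif2ak2, the RNA-activated kinase PKR, at -0.30 (SE 0.20) with a second probe at -0.64 (SE 0.25), and Rsad2, which encodes viperin, at 0.08 (SE 0.12).

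Of the remaining genes, Cxcl10, a chemokine that draws T cells, stood at 0.93, 0.53 and -0.59 in corn oil and at -0.14, -0.63 and -0.72 in treated livers. Corn oil replicate 1, not 2, was its highest array, and the difference was -0.79 (SE 0.40, adjusted p = 0.461). Ifi44l stood at -2.92, -1.95 and -2.70 in corn oil and at -3.02, -3.00 and -2.96 in treated livers. Treated replicates differed by little, with an SD of 0.03, and the difference of -0.47 (SE 0.25, adjusted p = 0.473) was -0.18 without corn oil replicate 2. Ifi44 was at -0.12 with all arrays and at 0.32 without that array. Ifi27, Parp9 and Parp14 lay between -0.17 and -0.08.

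Probes of the same gene mostly gave like differences. Of the 15 genes with more than 1 tested probe, 14 had all their probes on the same side of 0, and the exception was Ifit2. Mx2 was the 1 gene whose probes lay at least 0.8 apart. Over all 50 tested probes of the 30 genes, 43 were below 0 and 35 were highest on corn oil replicate 2. By their brightest probe, all tested genes gave 48% and 13.7%. Probes of 1 gene were read in the same rats, so they are not separate support. Of the 50 probes 4, of Dhx58, Ifit3, Oasl and Usp18, were not above background on all arrays. Over the other 46 the counts were 39 and 31.

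**Figure D4:**
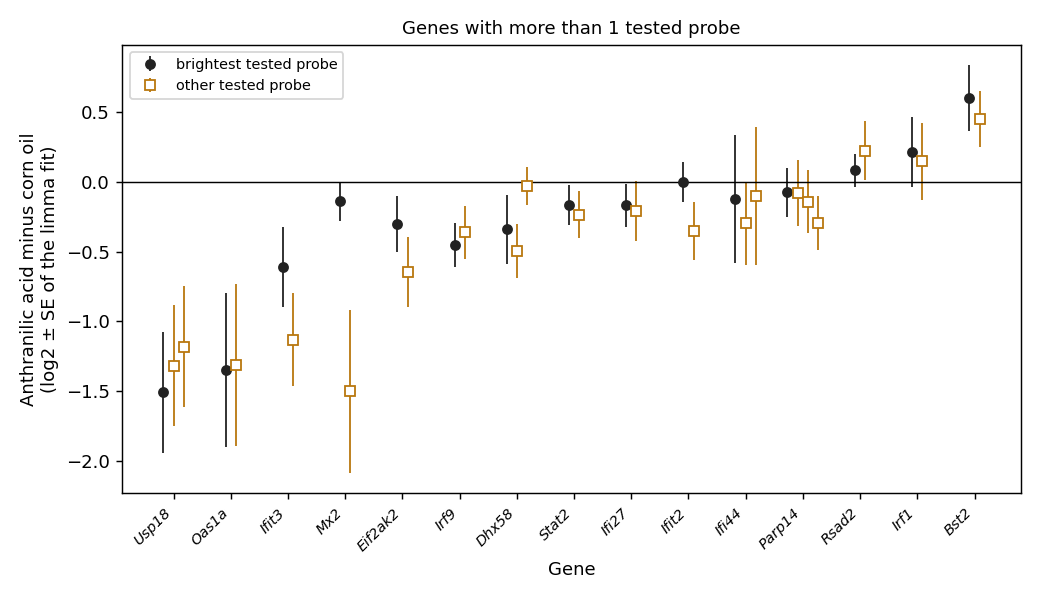
Anthranilic acid minus corn oil difference (log2, vertical axis, bars are the SE of the limma fit) of each tested probe of the 15 genes with more than 1, with the brightest probe as a filled circle and the others as open squares. The Usp18 probes lie between -1.51 and -1.18, the one at -1.32 being above background on only 2 of 3 treated arrays, while the Mx2 probes lie at -0.14 and -1.50.

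The spread between rats was larger in the corn oil group than in the treated group for 23 of the 30 genes, against 44.4% of all tested genes. The median SD over the 30 genes was 0.37 in corn oil and 0.24 in treated livers, and over all tested genes it was 0.13 and 0.14. Promoters were found for 24 of the 30 measured genes. The 16 with a match had a median excess of corn oil replicate 2 over the other controls of 0.48, with 6 of 16 at 0.8 or more. The 8 without a match had a median excess of 0.07, with 1 of 8, Oasl, at 0.8 or more. Left out for want of a promoter were Oas1k, Usp18 and Isg15, with an excess of 1.65, 1.46 and 1.45. Also left out were Dhx58, Mx2 and Ifit2, with 0.75, 0.43 and 0.34. The median difference between groups was -0.32 with a match and -0.31 without. A match describes only the letters in this window, and these contrasts between genes were not tested.

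Other genes of the pathway, from lists that hold no member, had a median difference near that of all genes. Of 59 listed genes 45 were measured, with a median difference of 0.01, and 0 passed the limma test, with 1 lower and 1 higher at unadjusted p under 0.05, where all tested genes gave 6.15% and 5.47%. Of the 45, 22 were below 0. Receptors and kinases had a median of -0.09 over 6 genes, with Ifngr2, a subunit of the interferon gamma receptor, at -0.22 and the kinase Jak2 at -0.13. Sensing and induction genes had a median of 0.05 over 8 genes, with Sting1, the adaptor for cytosolic DNA, at 0.46 (SE 0.15, adjusted p = 0.340) and Mavs, the adaptor of RIG-I and MDA5, at -0.23. Negative regulators had a median of 0.07 over 4 genes, with Pias1 at 0.10 and Ptpn6 at 0.05. A further 18 interferon-stimulated genes had a median of -0.02, with Cmpk2, which adjoins Rsad2 in many genomes, at -0.50 and the RNA editing enzyme Adar at -0.26. Corn oil replicate 2 was the highest of the 6 arrays for 6 of these 18, against 13.7% of all tested genes, and the highest control for 13 of 18, against 30.1%. Cmpk2 was 0.81 higher there than in the other controls. Immunoproteasome and MHC class I genes, many of them targets of interferon gamma, had a median of 0.06 over 9 genes, with the peptide transporter Tap1 at -0.55 (SE 0.15, adjusted p = 0.293) and the proteasome subunit Psmb10 at 0.37.

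Markers of cell types were read on the same arrays. Of 12 Kupffer cell and macrophage markers 11 were measured, all above background on every array. Corn oil replicate 2 was highest for 7 of 11, against 13.7% of all tested genes and 20 of 30 interferon response genes. Treated replicate 2 was lowest for 9 of 11, whereas interferon response genes were lowest on treated replicate 3 for 18 of 30. The median distance of these markers from the 6-array mean ran from -0.13 to 0.23 in corn oil, with the highest value on replicate 2. It was 0.03, -0.35 and 0.09 on treated replicates 1, 2 and 3. The median difference of these markers was -0.19, or -0.10 without corn oil replicate 2, with Lyz2 at 0.53 and Cd163 at -0.40. Their part in the lower interferon signals was not tested. The median distance of markers of T and natural killer cells (9 of 12 measured, 4 below 0) ran from -0.31 to 0.00 in corn oil and from -0.14 to 0.39 in treated livers, with Cd3g at 0.52 and Cd8a at 0.34. None of these markers passed the test. Only 2 of 5 markers of plasmacytoid dendritic cells, strong producers of interferon, were measured, Spib at 0.74 and Tcf4 at 0.05. Neutrophil markers (3 of 7 measured) had a median of 0.60, with S100a8 at 0.60 (SE 0.29) and Lcn2 at 1.49 (SE 0.76). On treated replicates 1, 2 and 3 S100a8 stood at 0.36, 0.02 and -0.66, and Lcn2 at -0.55, -2.02 and 1.11. Both overlapped the corn oil group, and they were highest on different treated arrays. Endothelial markers (5 of 8) had a median of -0.02, with Lyve1 at -0.34 and Eng at 0.21. The 10 hepatocyte markers had a median of -0.09, with Apoa1 at -0.57 and Ahsg at -0.13.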

How the data were processed

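Liver RNA of 6 rats was hybridised to 1-colour Agilent arrays (Cy3). Per the file headers, the deposited intensity values come from Agilent's Feature Extraction software, version 10.7.1.1, after its background subtraction. The authors' deposited value table holds a ratio of this signal to 1 value per array, within 0.126% of the 75th percentile, and served as an alternative. Its scaling method is not given in the sources read. The processed intensity was log2-transformed and each array's 75th percentile over 61657 non-control probes subtracted. The 33428 tested probes were well above background throughout 1 or both groups, with 2 or more spots per group that carried no outlier mark. Accessions were matched without version to the RefSeq table of GRCr8 (27460 probes with 1 symbol, 34197 with none here). The brightest tested probe stands for a gene. The test was that of limma 3.58.1 (R 4.3.3), two-sided, with 2.30 prior and 4 residual degrees of freedom and Benjamini-Hochberg adjustment over all tested probes, in a fit tested on simulated data. The number of arrays limits the precision. Values on all arrays are given for genes at unadjusted p under 0.05, at a difference of 0.8 or more, or among the 2 smallest p of a role class (the dimmer Mx2 probe, the Mx1 and Ifit1 values and Oas1b were added after their values were seen), and 2 genes are named per other list. The genes, lists and rules were chosen with earlier results of these data known. Alternatives covered background correction, scaling, filters, the probe that stands for a gene, variance models, slide, replicate number and each array left out.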

Additional observations from a re-analysis of the deposited data

How the results depend on the processing

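No member passed the limma test under any alternative, and the median difference stayed below 0, between -0.56 and -0.17 with 1 choice changed, and between -0.27 and -0.12 with corn oil replicate 2 also left out (added after the data were seen). Over all genes, 0 passed in the fit reported and 0 to 8 under the alternatives, most with normexp. The number of genes at unadjusted p under 0.05 was 8 in the fit reported (11.6% of all genes), 5 without the filter on dim probes (8.27%), 3 with slide as a block (10.3%), and 2 to 16 with 1 array left out, lowest without corn oil replicate 2 (8.06%) and highest without corn oil replicate 3 (11.8%). The number with groups that did not overlap in either direction was 7 (19.8% of all genes), and 7 to 18 with 1 array left out, from 27.3% of all genes without corn oil replicate 2 to 34.5% without corn oil replicate 3. Ifit2, at 0.00, lay below 0 with normexp (-0.0019), the mean of its probes (-0.18), its second probe (-0.35), array weights (-0.039) and slide blocking (-0.055), and ran from -0.073 without corn oil replicate 1 to 0.11 without corn oil replicate 2, and no other gene picked by the naming rule turned sign. Replicate numbers are not shown to pair the rats, since the deviations of same-numbered arrays correlated at 0.07, -0.05 and -0.04 and 2 of 6 arrays correlated best with their own number. With the replicate block 11 genes had an unadjusted p under 0.05 (10.1% of all genes), against 8, and 0 passed. Slide 2 held 1 treated array only, so blocking on slide compares the arrays of the first slide. Levels of Oasl, Oas2, Oas3, Ifit1 and the dim probes of Dhx58, Ifit3 and Usp18 are limited by background. With normexp the median of the oligoadenylate synthetase family was -0.62, against -1.08 in the fit reported. Oas1e then stood at -0.57 and Oasl at -0.55, whereas Oas1a, Oas1k and Oasl2 changed less, to -1.35, -1.18 and -0.67.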
